A study of Mus musculus with 14 samples.

Results

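The count table of 24062 genes was examined at 10 genes whose levels were nearly uniform in every plexiform neurofibroma (PN) and far from those in every control. They are *Acnat1*, *Grk4*, *Abt1*, *Vmn2r55*, *Psg28*, *1700025N23Rik* and *A330069E16Rik*, which were higher in PNs, and *Ctcfl*, *Smco1* and *Car5a*, which were lower. The genes were chosen from these same libraries for that separation, so their levels in PNs and controls, and their small spread among PNs, are given as a description with no test. All 10 were in the table and passed the filter on low counts.

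The study asked how nerve cells change when a PN forms, and bulk RNA-seq was made from whole, undissociated tissue of 14 mice. The 3 controls were labelled as dorsal root ganglia (DRGs, the sensory ganglia beside the spinal cord) and as Nf1fl/fl, with titles that name DRG3, DRG4 and DRG5. The Methods describe this control tissue as DRGs/nerves, so it may hold nerve as well as ganglion. The PNs came from DhhCre;Nf1fl/fl mice, in which a Cre recombinase driven by the Dhh promoter removes *Nf1* in the Schwann cell (SC) lineage during development, so only part of the cells of a PN lack the gene. Growth was scored by volumetric MRI, and 5 PNs were slow growing (mice 1079, 1198A, 1202, 1203 and 1206) and 6 were fast growing (mice 1053, 1071, 1179, 1191, 1214 and 1216). Both floxed alleles were carried by all 14 mice, none received a drug, and the Methods give their age as 9 months, although the study also describes these PNs with a younger age and the labels give none. The strain label of every sample names a mixture of C57BL/6, I-129 and FVBN, whereas the Methods give the background as largely C57BL/6. The titles give each library an identifier of its own. Those of the controls, DRG3, DRG4 and DRG5, do not state that they are separate mice. Sex and preparation batch are not labelled, and no library holds both tissues, so the preparation of the libraries, any strain difference between the groups and the tissue itself cannot be told apart as sources of a difference between PNs and controls.

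Between 9596773 and 17594164 reads were counted on genes per library, and 3 counts corresponded to between 0.171 and 0.313 CPM (a gene's count relative to the library's size), a floor that covers counting error only. All levels are CPM after TMM scaling, a normalization that sets the bulk of genes equal between libraries. In controls *Nf1* was at 171 ± 51.5 CPM (SD, n = 3), and PNs held 248 ± 22.9 CPM (SD, n = 11), which is 0.54 higher on the log2 scale (edgeR quasi-likelihood test, adjusted p = 0.0215). The call was lost without DRG4 or DRG5, with an adjusted p of up to 0.163. Counts per gene do not separate the deleted exons from the rest, so this value does not check the genotype.

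The proteins in question work in unrelated places. Vomeronasal receptors are membrane receptors of pheromone-sensing neurons, pregnancy-specific glycoproteins are secreted by placental trophoblast, and acyl-CoA N-acyltransferases of peroxisomes and the mitochondrial carbonic anhydrase VA are best known from liver. G protein-coupled receptor kinases switch off activated receptors, and *Ctcfl* is a DNA-binding paralog of the chromatin organizer *Ctcf* that is normally used in male germ cells. None is a usual marker of SCs, neurons or other cells of a nerve.

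The 250 bases before the annotated start are shown for 5 of the genes: the 3 whose control level was lowest, then *Acnat1*, whose window shares a motif with 2 of them, and *Car5a*, the lowest gene in PNs. They were taken from RefSeq (GRCm38.p6, the assembly called mm10), which held a window for 9 of the 10 genes. Each is written 5′ to 3′ on the strand of the gene, and capitals mark a match to one of the motifs named after the sequences. The positions are chr7:12684992-12685241 (minus strand) for *Vmn2r55*, chr7:18432056-18432305 (minus) for *Psg28*, chr6:39067587-39067836 (minus) for *1700025N23Rik*, chr4:49451110-49451359 (minus) for *Acnat1*, and chr8:121944913-121945162 (minus) for *Car5a*. For *Acnat1* the RefSeq start lies inside the GENCODE span of the gene given with its levels, whose outermost start is farther upstream.
Vmn2r55: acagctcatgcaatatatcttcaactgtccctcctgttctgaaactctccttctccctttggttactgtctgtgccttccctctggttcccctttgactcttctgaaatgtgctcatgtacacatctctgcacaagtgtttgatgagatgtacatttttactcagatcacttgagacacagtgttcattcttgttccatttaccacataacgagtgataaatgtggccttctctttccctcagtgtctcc
Psg28: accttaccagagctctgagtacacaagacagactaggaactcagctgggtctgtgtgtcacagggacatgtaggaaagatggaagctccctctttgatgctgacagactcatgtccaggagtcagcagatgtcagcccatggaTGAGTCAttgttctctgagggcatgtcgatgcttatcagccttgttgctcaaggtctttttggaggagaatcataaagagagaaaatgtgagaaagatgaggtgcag
1700025N23Rik: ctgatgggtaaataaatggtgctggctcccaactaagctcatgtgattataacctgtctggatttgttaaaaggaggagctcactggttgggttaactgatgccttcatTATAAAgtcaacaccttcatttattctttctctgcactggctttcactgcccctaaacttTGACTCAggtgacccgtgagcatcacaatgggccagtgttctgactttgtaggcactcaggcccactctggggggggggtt
Acnat1: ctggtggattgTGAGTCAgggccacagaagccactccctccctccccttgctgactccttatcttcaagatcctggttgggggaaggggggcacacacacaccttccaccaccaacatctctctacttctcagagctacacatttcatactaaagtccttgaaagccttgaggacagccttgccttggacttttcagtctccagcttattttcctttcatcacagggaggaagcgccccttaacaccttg
Car5a: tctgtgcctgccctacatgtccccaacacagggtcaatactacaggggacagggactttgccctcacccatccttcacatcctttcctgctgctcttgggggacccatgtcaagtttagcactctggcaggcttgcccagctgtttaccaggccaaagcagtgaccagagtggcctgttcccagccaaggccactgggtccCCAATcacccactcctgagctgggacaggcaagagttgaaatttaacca

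On both strands, 7 motifs were searched. The AP-1 letters TGACTCA occurred in the windows of *Acnat1*, *Psg28* and *1700025N23Rik*, 239, 107 and 81 bases before the start, so in 3 of 9 windows, and in 4.43% of the 27025 RefSeq windows of the same length. The TATA letters TATAAA occurred in 1 window, that of *1700025N23Rik* (13.0% of all windows), the CCAAT letters in 2, *Abt1* and *Car5a* (34.5%), and the GC box GGGCGG in 3, *Grk4*, *Abt1* and *A330069E16Rik* (32.9%). CACGTG, TGACGTCA and the core of the *Ctcf* binding motif were in none of the 9, and in 6.05%, 1.62% and 0.0555% of all windows. Where matches overlap, as at the GC boxes of *Abt1*, each was counted. The windows of *Grk4*, *Abt1* and *A330069E16Rik* held 17, 18 and 22 CpG dinucleotides, against a median of 6 over all windows, that of *Smco1* held 5, and the other 5 held 0 or 1. The 10 genes therefore do not share a type of start, and these matches are letters in a window, not sites shown to be used.

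*Vmn2r55*, a vomeronasal type 2 receptor gene on chr7:12651706-12685003, was not counted once in controls. Its level was 0 CPM in DRG3, DRG4 and DRG5. It was 9.96, 11.05, 8.23, 11.4 and 10.7 CPM in slow-growing PNs 1079, 1198A, 1202, 1203 and 1206, and from 6.44 to 12.6 CPM with a median of 8.03 CPM in fast-growing PNs. Every PN thus held between 81 and 170 counts of a gene at 0 in all controls, and the PN mean of 9.44 ± 1.87 CPM (SD, n = 11) was at least 103-fold higher than the 0.0919 CPM that 3 counts over the 3 controls together would give. Of the 50-base stretches of its longest transcript, 71.2% also occur in other annotated transcripts, among them *Vmn2r53*, *Vmn2r54* and *Vmn2r56*. Those neighbours were themselves near 0: *Vmn2r56* averaged 0.204 CPM in controls, against 0.00691 CPM in PNs. *Vmn2r53* and *Vmn2r54* were at 0 CPM in every control and averaged 0.0171 and 0.0271 CPM in PNs. How reads that match several of these genes were counted was not tested.

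*Psg28*, a pregnancy-specific glycoprotein gene on chr7:18422536-18432041, had 1 count over all controls, in DRG3. Its level was 0.0864, 0 and 0 CPM in DRG3, DRG4 and DRG5. In slow-growing PNs it was 8.59, 8.04, 7.31, 7.67 and 6.46 CPM in the order of mice given above, and in fast-growing PNs 4.39 to 8.62 CPM with a median of 6.25 CPM. The lowest PN was 50.8 times the highest control. Over pooled libraries the PN to control ratio was 222, with an exact 95% counting interval of 39.8 to 8785 that reflects the single control count. Of its 50-base stretches, 31.5% also occur in other annotated transcripts, among them those of *Psg18*, *Psg25*, *Psg26* and *Psg27*. The nearest of these genes, *Psg26*, had 5 counts in controls and was at 0 CPM in every PN, as was *Psg27*, while *Psg18* was not counted in any library and *Psg25* averaged 0.0343 CPM in PNs.

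*Acnat1*, a peroxisomal acyl-CoA N-acyltransferase that joins fatty acids to taurine, lies on chr4:49447105-49473912. It was at 1.90, 1.20 and 1.59 CPM in DRG3, DRG4 and DRG5. In slow-growing PNs the levels were 18.7, 22.6, 16.5, 15.1 and 17.7 CPM, and in fast-growing PNs they ranged from 16.1 to 21.6 CPM with a median of 18.4 CPM. The PN mean of 18.4 ± 2.28 CPM was 11.8 times the control mean of 1.56 ± 0.35 CPM, and the lowest PN was 7.92 times the highest control. Its paralog *Acnat2*, which shares 35.1% of its 50-base stretches, had 2 counts in all 14 libraries together, and *Baat*, the bile acid conjugating enzyme next to it, averaged 0.157 CPM in controls and 0.237 CPM in PNs.

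*Grk4*, a G protein-coupled receptor kinase gene on chr5:34660379-34755305, was the most abundant of the 10 genes in PNs. The control levels lay close together, at 32.9, 34.6 and 32.8 CPM in DRG3, DRG4 and DRG5. The slow-growing PNs held 227, 237, 207, 242 and 227 CPM, and the fast-growing PNs 166 to 247 CPM with a median of 182 CPM. Between 2040 and 3266 reads supported each PN value. The PN mean of 211 ± 31.1 CPM was 6.31 times the control mean of 33.4 ± 0.999 CPM.

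*Abt1*, which activates basal transcription through the TATA-binding protein, lies on chr13:23418361-23423866. It was at 8.55, 7.30 and 6.98 CPM in controls. It was at 47.9, 47.6, 35.2, 37.9 and 48.8 CPM in slow-growing PNs, and from 41.2 to 59.4 CPM with a median of 43.5 CPM in fast-growing PNs. The PN mean of 44.9 ± 6.45 CPM was 5.90 times the control mean of 7.61 ± 0.832 CPM, and the groups were 4.12-fold apart at their nearest libraries.

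The noncoding RNA *1700025N23Rik* runs antisense within the span of *Tbxas1* on chr6:39063878-39067598 and shares no exon base with it. Its control levels were uneven, at 0.259, 1.02 and 0.106 CPM in DRG3, DRG4 and DRG5, or 15 counts in all. In slow-growing PNs it was at 11.5, 13.8, 11.4, 12.4 and 13.0 CPM, and in fast-growing PNs at 9.32 to 15.1 CPM with a median of 12.6 CPM. The log2 fold change of 4.69 ± 0.44 (SE) moved with single controls, to 5.96 without DRG4, 4.40 without DRG3 and 4.26 without DRG5. *Tbxas1*, the thromboxane synthase gene around it, averaged 5.29 ± 2.87 CPM in controls and in PNs 7.83 ± 6.86 CPM and was not called (log2 fold change 0.57 ± 0.78, edgeR adjusted p = 0.623).

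*A330069E16Rik*, an intergenic noncoding RNA on chr2:91237146-91238352, had the smallest relative spread among PNs. Controls held 2.59, 2.96 and 2.22 CPM. Slow-growing PNs held 18.92, 17.96, 17.98, 17.07 and 15.91 CPM, and fast-growing PNs 13.2 to 19.0 CPM with a median of 16.0 CPM. The PN mean of 16.6 ± 1.87 CPM was 6.41 times the control mean of 2.59 ± 0.369 CPM.

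Of the genes lower in PNs, *Ctcfl* on chr2:173093609-173119525 was at 16.5, 23.6 and 22.4 CPM in DRG3, DRG4 and DRG5. It was at 1.52, 1.73, 2.74, 2.01 and 1.83 CPM in slow-growing PNs, and from 1.02 to 1.94 CPM with a median of 1.42 CPM in fast-growing PNs, on 14 to 35 counts per PN. The control mean of 20.8 ± 3.79 CPM was 12.2 times the PN mean of 1.71 ± 0.453 CPM. The gene shares 171 exon bases with the antisense gene *Ctcflos*, and since the strand setting of the counting was not given in the sources used here, reads of the pair may not be separated. *Ctcflos* itself averaged 18.3 ± 4.6 CPM in controls but 3.40 ± 3.06 CPM in PNs, with a log2 fold change of -2.44 ± 0.67 (edgeR adjusted p = 0.0158, and 0.0644 without DRG5). In PNs *Ctcflos* ranged from 0.201 to 9.35 CPM. The part of *Ctcflos* reads in the counts of *Ctcfl* was not tested.

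*Smco1*, a gene for a single-pass membrane protein with coiled-coil domains on chr16:32271468-32274781, was at 30.9, 45.6 and 47.6 CPM in controls. It was at 8.66, 6.99, 7.92, 7.67 and 6.36 CPM in slow-growing PNs, and from 5.31 to 8.55 CPM with a median of 7.28 CPM in fast-growing PNs. The control mean of 41.4 ± 9.09 CPM was 5.62 times the PN mean of 7.37 ± 1.02 CPM. Its nearest libraries were 3.57-fold apart, the smallest such gap among the 10 genes.

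*Car5a*, the mitochondrial carbonic anhydrase VA gene on chr8:121916126-121944904, was at 8.64, 11.6 and 7.61 CPM in controls. In slow-growing PNs it was at 0.456, 0.526, 0.914, 0.730 and 0.964 CPM, and in fast-growing PNs from 0.366 to 0.672 CPM with a median of 0.579 CPM. These PN values rest on 5 to 10 counts each, so counting alone would give a coefficient of variation (CV) of 36.0%, above the 29.5% seen. The control mean of 9.30 ± 2.10 CPM was 14.8 times the PN mean of 0.630 ± 0.186 CPM. The gene shares 314 exon bases with *BC048644* on the other strand, which averaged 0.117 CPM in controls and 0.0294 CPM in PNs.

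**Figure D1:**
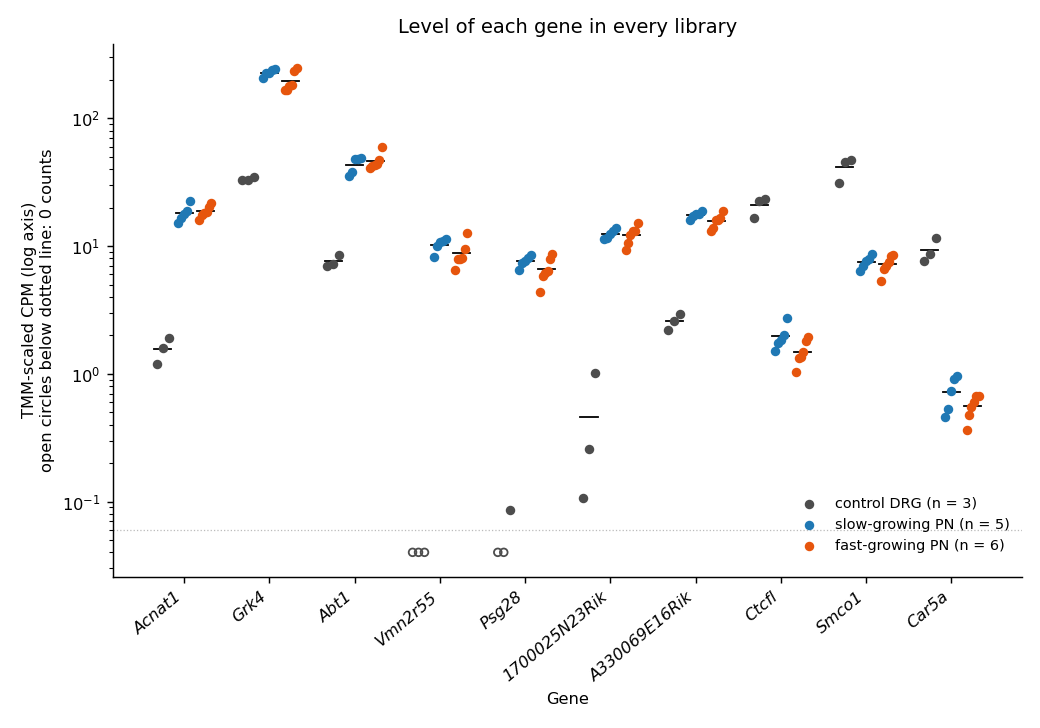
TMM-scaled CPM (log axis) of the 10 genes in each of the 14 libraries, with 1 point per library, black bars at group means, and open circles below the dotted line for libraries with 0 counts (no bar is drawn for a mean at or near 0). The PN libraries of a gene lie close together and apart from all controls, as for *Grk4* at 166 to 247 CPM in PNs and 32.8 to 34.6 CPM in controls.

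All 10 genes had PN and control ranges that did not overlap, 7 higher and 3 lower, as the choice of the genes requires. Over all 16283 genes tested for PNs versus controls, 17.7% did not overlap in this sense, 8.18% higher and 9.48% lower, and 26.3% were called at an adjusted p under 0.05. Ordered by the gap between the nearest PN and control on the log2 scale, the 10 genes ranked between 1, for *Vmn2r55*, and 99, for *Smco1*, of those 16283.

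Among the PNs, the CV of the 10 genes ranged from 11.2% for *A330069E16Rik* to 29.5% for *Car5a*. The 500 genes nearest in PN level to each had a median CV of 22.1% to 73.0%, and each of the 10 lay below its own median. For *Grk4* the CV was 14.7% against 25.1% for genes of like level, and for *Abt1* 14.3% against 22.1%. The higher and the lower genes were alike in this respect, since *Smco1* varied by 13.9% against 31.2% and *Ctcfl* by 26.6% against 49.2%. Uniformity was part of the choice, so these figures describe the genes and are not evidence of it.

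**Figure D2:**
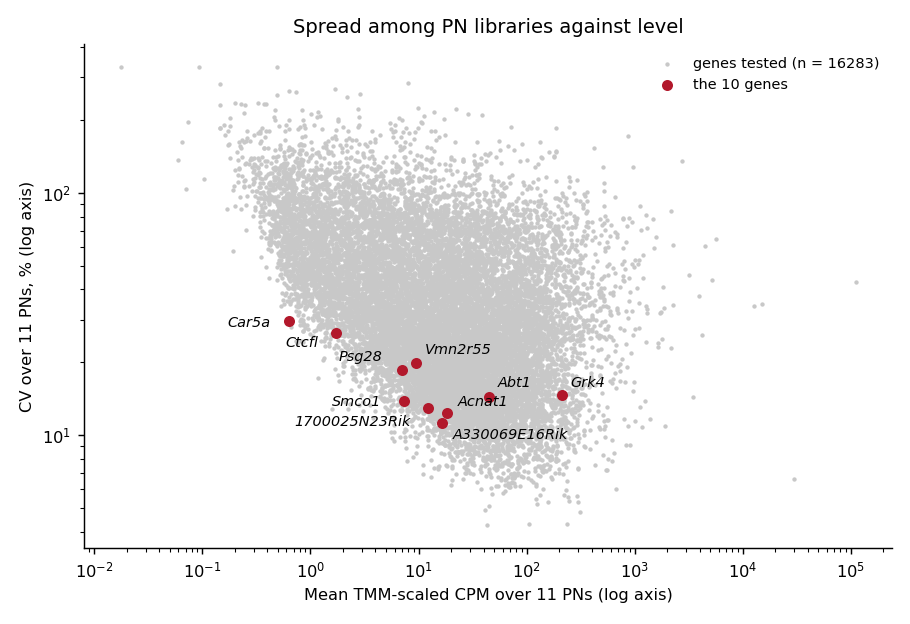
CV over the 11 PNs (%, log axis) against mean TMM-scaled CPM (log axis) for the 16283 genes tested, in grey, with the 10 genes in red. The 10 genes lie in the lower part of the cloud at their level, from 11.2% for *A330069E16Rik* to 29.5% for *Car5a*.

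Levels per kilobase of the longest annotated transcript allow the genes to be ordered. In PNs the mean was 65.2 CPM per kb for *Grk4*, 18.7 for *A330069E16Rik*, 13.5 for *1700025N23Rik*, 12.3 for *Acnat1*, 10.1 for *Abt1*, 5.22 for *Smco1*, 3.86 for *Vmn2r55*, 3.61 for *Psg28*, 0.531 for *Ctcfl* and 0.504 CPM per kb for *Car5a*. Within this order the mean ± SD of the neighbouring genes *1700025N23Rik* and *Acnat1*, *Acnat1* and *Abt1*, *Smco1* and *Vmn2r55*, *Vmn2r55* and *Psg28*, and *Ctcfl* and *Car5a* overlapped. In controls the order began with *Smco1* at 29.3 CPM per kb, followed by *Grk4* at 10.3, *Car5a* at 7.45 and *Ctcfl* at 6.48 CPM per kb, of which the last pair differed by less than their SDs.

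Slow- and fast-growing PNs were each set against the same 3 controls, so these comparisons share their control libraries, and the values are placed side by side. *Acnat1* had a log2 fold change of 3.49 ± 0.26 (SE) in slow-growing and 3.52 ± 0.21 in fast-growing PNs. For *Grk4* the values were 2.73 ± 0.15 and 2.50 ± 0.18, and for *Abt1* 2.47 ± 0.20 and 2.55 ± 0.17. The noncoding *1700025N23Rik* had 4.66 ± 0.58 and 4.63 ± 0.54, and *A330069E16Rik* 2.71 ± 0.20 and 2.56 ± 0.20. *Ctcfl* had -3.45 ± 0.25 and -3.85 ± 0.23, *Smco1* -2.50 ± 0.20 and -2.57 ± 0.20, and *Car5a* -3.73 ± 0.33 and -4.09 ± 0.26. In both comparisons all 10 genes passed the threshold, in which 11.3% and 31.4% of all tested genes did, as their choice requires.

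Between fast- and slow-growing PNs, a comparison that holds no control, 9 of the 10 genes passed the filter, *Car5a* being too low. The ranges of slow- and fast-growing PNs overlapped for each of the 10, where 3.01% of the 15465 genes tested had ranges that did not overlap and 1.27% were called. Log2 differences between fast and slow growth ran from -0.391 ± 0.245 (SE) for *Ctcfl* to 0.0851 ± 0.137 for *Abt1*. For *Grk4* the slow-growing mean was 228 ± 13.5 CPM (SD) and the fast-growing mean 196 ± 35.1 CPM, so the log2 difference was -0.218 ± 0.133. Uniformity among PNs had been part of the choice of the genes, so no p is given.

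**Figure D3:**
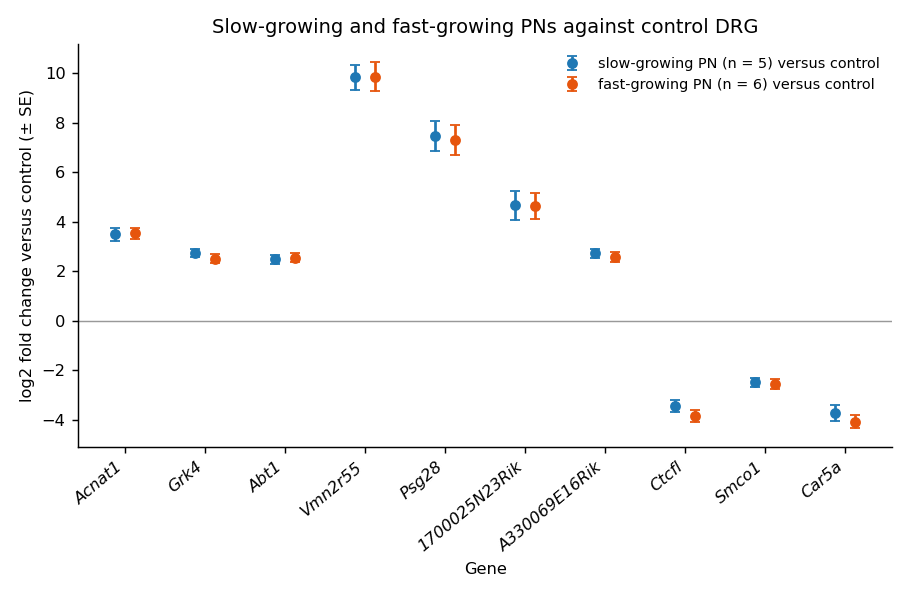
Fitted log2 fold change against control DRG (± SE) of each gene in slow-growing (blue, n = 5) and fast-growing PNs (orange, n = 6), each fitted with the same 3 controls. Both classes lie on the same side for every gene, with *Acnat1* at 3.49 and 3.52, and the fitted size for *Vmn2r55*, at 0 in controls, depends on the added prior count.

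The genes beside each member on its chromosome were not used in choosing the members. The 3 nearest genes of the count table on each side, with genes that overlap a member, gave 60 neighbours, of which 40 passed the filter and 11 were called, 5 higher and 6 lower. That is 27.5% of those tested, against 26.3% of all genes, and 7 of the 11 moved in the direction of their member. With 1 gene on each side, 4 of 11 tested were called (36.4%), and with 10 on each side, 32 of 123 (26.02%). The count of 11 became 6 without DRG5 and 16 without DRG3. No member lies on the chromosome of *Nf1*.

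Beside *Vmn2r55*, the zinc finger gene *Zfp329* rose from 37.6 ± 3.07 to 64.4 ± 8.69 CPM (log2 fold change 0.78 ± 0.14, edgeR adjusted p = 0.00109). Beside *Psg28*, *Mill1*, an MHC class I-like gene, was at 1 count over all controls and between 0.408 and 1.21 CPM in every PN, a pooled ratio of 24.7 with an exact 95% counting interval of 4.35 to 985. It passed the filter through its PN counts alone and so had to differ, which makes its place among the 11 calls no evidence. *Mill1* was the 1 tested neighbour of *Psg28*, and no other tested gene among the 3 nearest on each side of a gene higher in PNs had a fitted log2 fold change above 1. Around *Acnat1*, *Zfp189* rose by a log2 fold change of 0.69 ± 0.17 (adjusted p = 0.00843), the mitochondrial ribosomal gene *Mrpl50* decreased by 1.03 ± 0.15 in log2 terms (adjusted p = 0.000233), and *Murc*, a muscle caveola gene, fell by 2.76 ± 0.72 (adjusted p = 0.0119, and 0.164 without DRG5).

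*Grk4* lies between *Nop14*, a ribosome assembly gene, and *Htt*, which encodes huntingtin. *Nop14* held 34.5 ± 2.63 CPM in controls, with 34.6 ± 4.27 CPM in PNs, a log2 fold change of 0.0047 ± 0.126, beside the 2.66 ± 0.17 of *Grk4*. *Htt* rose from 109 ± 17.0 to 162 ± 24.0 CPM (log2 fold change 0.57 ± 0.15, edgeR adjusted p = 0.0149, and up to 0.112 without DRG4 or DRG5). For *Abt1*, neither tested neighbour was called or had an unadjusted p under 0.05, and *Zfp322a* held 27.3 ± 2.82 CPM in controls, with 30.3 ± 3.02 CPM in PNs. Of its neighbours too low to be tested, *4933404K08Rik*, named after its values were seen, was at 0 CPM in every control and at 0.203 to 0.908 CPM in every PN, on 78 counts in all. For *1700025N23Rik*, 0 of 6 tested neighbours were called, by edgeR, DESeq2 or limma-voom, and 0 had an unadjusted p under 0.05, with log2 fold changes of -0.68 to 0.61. Beside *A330069E16Rik*, the endocytosis gene *Pacsin3* had a log2 fold change of -0.99 ± 0.26 (adjusted p = 0.0118, and 0.123 without DRG5), opposite to its neighbour, and *Acp2* and *Arfgap2* had log2 fold changes of 0.06 and 0.10.

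Around *Ctcfl*, the 2 called genes both moved in its direction. *Rbm38*, an RNA-binding protein gene on one side, fell from 19.5 ± 10.9 to 4.19 ± 1.72 CPM (log2 fold change -2.22 ± 0.35, edgeR adjusted p = 0.000411), and *Ctcflos* fell as given above. *Pck1* on the other side, a gene of glucose production that is also on the fat marker list, averaged 431 ± 229 CPM in controls, with 76.6 ± 116 CPM in PNs, and was not called (adjusted p = 0.163). Beside *Smco1*, *Ubxn7* rose by a log2 fold change of 0.41 ± 0.11 (adjusted p = 0.0137, and 0.116 without DRG5), while *Rnf168*, the DNA damage ubiquitin ligase, was at 38.3 ± 1.62 and 45.6 ± 4.73 CPM and was not called. Beside *Car5a*, *Zfpm1* had a log2 fold change of -1.19 ± 0.25 (adjusted p = 0.00334, and 0.0509 without DRG5), and *Banp*, the nearest tested gene on one side, had a log2 fold change of 0.05 ± 0.23.

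**Figure D4:**
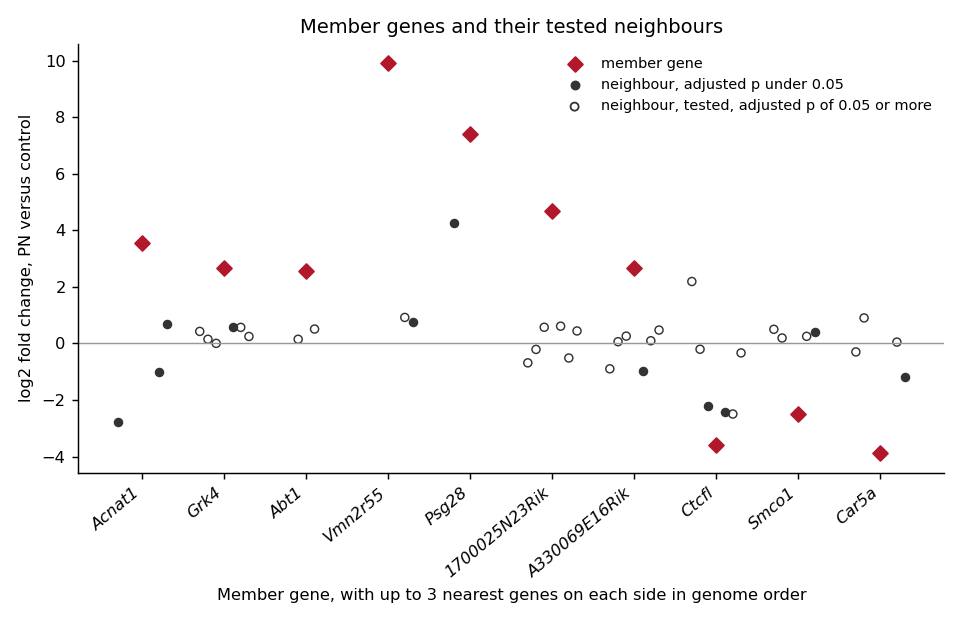
Log2 fold change in PNs versus controls of each member (red diamond) and of its tested neighbours among the 3 nearest genes on each side, placed left and right in genome order, with filled circles for neighbours at an adjusted p under 0.05. Each member's fitted change is larger in size than those of its own tested neighbours, as for *Grk4* at 2.66 and *Htt* at 0.57. The members were chosen for their distance from controls and the neighbours were not, so this follows from the choice and is no evidence.

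Over the 8 families of the members, 18 of 62 tested genes were called (29.0%), where 26.3% of all genes were. Of 126 vomeronasal type 2 receptors in the table, 42 were at 0 in every library and 5 passed the filter, of which *Vmn2r29* rose from 4.19 ± 0.773 to 8.07 ± 1.37 CPM (log2 fold change 0.94 ± 0.21, edgeR adjusted p = 0.00413). Of 211 type 1 receptors, a related family that holds no member, 151 were at 0 in every library, and all 3 that passed the filter rose: *Vmn1r58* from 57.8 ± 3.26 to 191 ± 19.2 CPM, *Vmn1r65* from 4.23 ± 0.947 to 15.9 ± 3.03 CPM, and *Vmn1r181* from 0.910 ± 0.480 to 7.78 ± 5.70 CPM. Their log2 fold changes were 1.72 ± 0.13, 1.91 ± 0.22 and 3.07 ± 0.96. The adjusted p was 1.04e-06 and 3.05e-05 for *Vmn1r58* and *Vmn1r65* (edgeR). For *Vmn1r181* it was 0.0299, a call lost without any 1 of the 3 controls (up to 0.139). The controls of *Vmn1r181* were too low to pass the filter without its PN counts, so its rise is given as a description. Of 13 pregnancy-specific glycoproteins other than *Psg28*, 3 passed the filter and *Psg23* rose from 5.22 ± 0.710 to 8.79 ± 1.23 CPM (log2 fold change 0.75 ± 0.17, adjusted p = 0.00542). Most genes of the vomeronasal families were thus too low to be tested in either tissue, and the sum of the type 1 receptors, 63.0 to 67.1 CPM in controls and 193 to 258 CPM in PNs, was mostly *Vmn1r58*.

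Among 5 tested enzymes of acyl-CoA conjugation and hydrolysis, *Acot1* and *Acot6* rose, by log2 fold changes of 1.35 ± 0.37 and 0.996 ± 0.267, and 2 fell, among them *Acot2* by 1.14 ± 0.17 on the log2 scale (edgeR adjusted p = 0.0151, 0.0139 and 0.000304). The rises of *Acot1* and *Acot6* were lost without DRG4 or DRG5, and the 4 calls became 2 and 1. Of 7 receptor kinases and arrestins, *Arrb1* rose from 126 ± 19.1 to 218 ± 53.6 CPM (adjusted p = 0.0207, and up to 0.115 without DRG4 or DRG5), whereas the kinases *Grk1* and *Adrbk2* fell by 1.64 ± 0.23 and 1.41 ± 0.24 on the log2 scale (adjusted p = 0.000171 and 0.000699), opposite to *Grk4*. Of 15 genes of basal transcription and small-subunit rRNA processing, which include partners of *Abt1*, *Utp23* rose (0.78 ± 0.16, adjusted p = 0.00307) and *Fcf1* and *Fbl* fell, by 1.13 ± 0.13 and 0.49 ± 0.17 on the log2 scale (adjusted p = 4.38e-05 and 0.0494, the latter lost when any of 11 of the 14 libraries was left out, up to 0.299). Of 11 genes of *Ctcf* and the cohesin ring, *Smc3* and *Pds5b* rose, by log2 fold changes of 0.60 ± 0.11 and 0.40 ± 0.12 (adjusted p = 0.00139 and 0.02), and none fell. The call of *Pds5b* was lost without DRG4, DRG5 or PN 1214 (adjusted p up to 0.126), and 4 genes of this list were called without PN 1203.

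Of 14 tested carbonic anhydrases other than *Car5a*, *Car1* and *Car4* fell, with log2 fold changes of -4.05 ± 0.71 and -1.91 ± 0.64, and *Car11* rose by 0.87 ± 0.28 (edgeR adjusted p = 0.000912, 0.0414 and 0.0349). The fold of *Car1* rests on DRG5, since it was -2.64 without it, still called, with 0.647 to 22.3 CPM in controls and 0.0751 to 1.52 CPM in PNs, ranges that overlap. The call of *Car4* was lost when any of 7 libraries was left out (adjusted p up to 0.167), and that of *Car11* when any of 5 was (up to 0.178). Of 2 tested relatives of *Smco1*, *Smco4* fell from 10.1 ± 1.62 to 3.73 ± 1.47 CPM (log2 fold change -1.43 ± 0.32, adjusted p = 0.00496). The median log2 fold change of these families lay between -0.74 and 1.91, with 0.10 over all genes tested, and the 1.91 of the type 1 receptors is that of 3 genes.

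Markers of the organs in which the members are best known were examined next. In bulk tissue, fewer cells of a type and less RNA per cell cannot be told apart. Of 15 hepatocyte markers 5 passed the filter and 0 were called by edgeR and DESeq2 (1 by limma-voom, and 0 at an unadjusted p under 0.05), with summed levels of 142 to 251 CPM in controls, 11.04 to 468 in slow-growing and 9.81 to 84.7 CPM in fast-growing PNs, mostly *Cyp2e1*, which fat also expresses. Of 10 trophoblast markers 4 were at 0 in every library and 2 passed the filter, with summed levels of 5.18 to 14.3 CPM in controls, 6.21 to 12.2 in slow-growing and 2.35 to 5.72 CPM in fast-growing PNs, and 0 calls by edgeR, DESeq2 and limma-voom or at an unadjusted p under 0.05. Of 14 male germ cell markers 2 were at 0 in every library and 3 passed the filter, with summed levels of 24.4 to 37.9 CPM in controls, 10.1 to 25.5 in slow-growing and 4.43 to 13.9 CPM in fast-growing PNs. Of those 3, the synaptonemal complex gene *Sycp3* had a log2 fold change of -1.41 ± 0.48 (edgeR adjusted p = 0.044, lost when any of 10 of the 14 libraries was left out, up to 0.162). The part of these cells in the levels of *Acnat1*, *Car5a*, *Psg28* and *Ctcfl* was not tested.

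Markers of tissue around the nerve did move with the groups. Of 15 skeletal muscle markers 8 fell and 0 rose, with summed levels of 3956, 9192 and 16186 CPM in DRG3, DRG4 and DRG5, 31.4 to 3791 CPM in slow-growing and 81.0 to 2493 CPM in fast-growing PNs. The 8 calls became 1 without DRG4 and 0 without DRG5. Of 13 fat markers 5 fell, with 4090 to 6262 CPM in controls and 18.5 to 3390 CPM over all PNs. Those 5 calls became 2 without any 1 of the 3 controls, 3 without PN 1214, and 10 with limma-voom. The most abundant markers, *Myh4* at 1291 ± 995 and 181 ± 256 CPM and *Cfd* at 942 ± 420 and 189 ± 350 CPM in controls and PNs, were not themselves called (edgeR adjusted p = 0.166 and 0.303). The part of muscle and fat in the levels of the members was not tested.

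Of 12 SC markers 5 rose and none fell, with sums of 4748 to 14098 CPM in controls, against 7979 to 22482 CPM in PNs, and *Pmp22*, the most abundant, was not called (adjusted p = 0.443). Of 6 satellite glial markers 2 rose and 1 fell, with a median log2 fold change of -0.18, against 0.0951 over all genes tested. Their sums were 598 to 832 CPM in controls, 681 to 1330 in slow-growing and 946 to 1141 CPM in fast-growing PNs. *Cdh19*, the most abundant of them in PNs, averaged 58.4 ± 26.5 CPM in controls with 379 ± 142 CPM in PNs (log2 fold change 2.70 ± 0.47, edgeR adjusted p = 0.00089). Sensory neuron markers were present in all libraries, with 1631 to 5595 CPM in controls, against 558 to 12523 CPM in PNs, and 1 of 16 rose (0 without DRG4 or DRG5), while *Nefl* was not called (adjusted p = 0.8). Of 8 fibroblast markers 0 were called by edgeR and limma-voom and 3 by DESeq2, and 5 had an unadjusted p under 0.05 in edgeR. With edgeR, 6 of them were called without PN 1203 and 1 without PN 1202. Of 9 macrophage markers 0 were called by any of these tools or had such a p. *Dcn* was at 1520 ± 609 and 3210 ± 1480 CPM and *Lyz2* at 613 ± 383 and 494 ± 365 CPM in controls and PNs. The part of these cell types in the levels of the members was not tested.

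**Figure D5:**
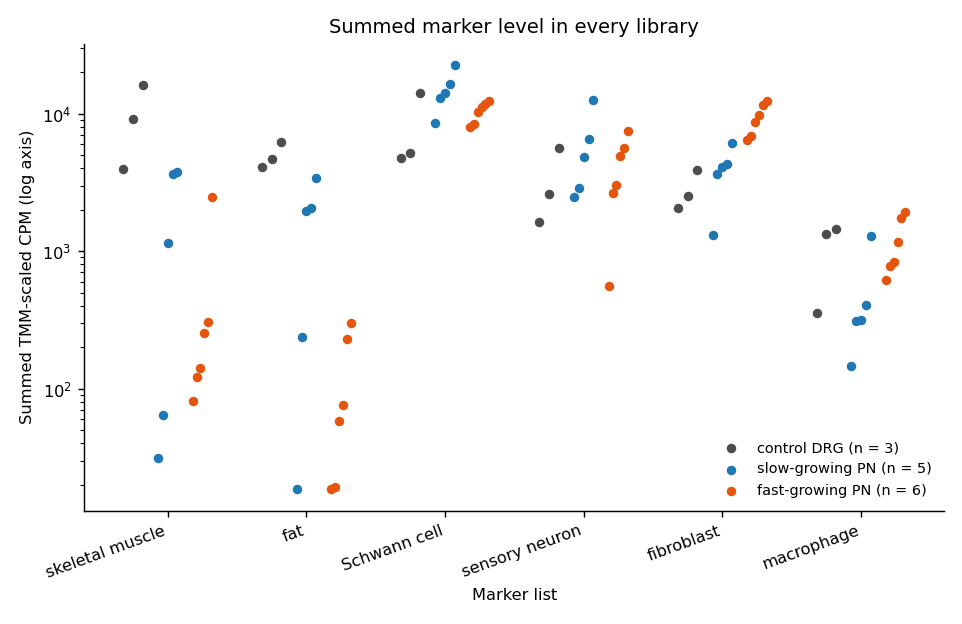
Summed TMM-scaled CPM (log axis) of 6 marker lists in each library, 1 point per library. Among the PNs the skeletal muscle sums span 31.4 to 3791 CPM and the fat sums 18.5 to 3390 CPM.

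Features of the RNA were compared too. Of 6 transcripts that are very abundant or lack a poly(A) tail, 5 were tested, of which *Neat1* rose and *Rmrp* fell. They summed to 188032 to 198259 CPM in controls, against 64127 to 216508 CPM in PNs, and *Rn45s*, the ribosomal precursor, averaged 173298 ± 5291 CPM in controls, with 111067 ± 47857 CPM in PNs, and was not called (edgeR adjusted p = 0.304). Of 22 replication-dependent histone genes tested, whose transcripts lack a poly(A) tail, 9 fell and none rose, with sums of 143 to 268 CPM in controls, against 84.5 to 143 CPM in PNs, and the count of 9 became 5 without DRG4 and 1 without DRG5. The most abundant, *Hist1h2bc*, was not called (adjusted p = 0.124). *Xist* ranged from 0.95 to 2323 CPM in controls and from 1.46 to 3493 CPM in PNs, so both groups held libraries with and without it. The part of RNA composition in the levels of the members was not tested.

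The genes whose pattern was most like that of the members were sought over all 14 libraries, by Pearson's r between log2 CPM and the mean standardized profile of the members. Because 3 of the 14 points are controls and 11 are PNs, r mostly records the same separation, and it is given as a description. The mean of the 7 higher members was matched best by *Vmn1r58* and *9130221F21Rik* (both r = 0.995) and the zinc finger gene *Zfp277* (r = 0.995), and 142 genes had an r above 0.95. *Zfp277* averaged 90.5 ± 6.84 CPM in controls, with 347 ± 31.2 CPM in PNs. The noncoding *9130221F21Rik* held 3 counts over all controls and averaged 6.75 ± 1.12 CPM in PNs, a pooled ratio of 71.1 with an exact counting interval of 24.3 to 345. *Vmn1r58* and *Grk4* have 50-base stretches in common in the annotation.

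The mean of the 3 lower members was matched best by *Polr2i*, a subunit of RNA polymerase II (r = 0.964), the mitochondrial ribosomal gene *Mrps35* (r = 0.96) and the noncoding *4930519G04Rik* (r = 0.959), and 9 genes had an r above 0.95. *Polr2i* averaged 18.7 ± 2.84 CPM in controls, with 5.09 ± 0.651 CPM in PNs, *Mrps35* averaged 21.8 ± 1.40 and 8.19 ± 1.32 CPM, and *4930519G04Rik* averaged 30.3 ± 4.52 and 8.42 ± 1.66 CPM. The 50-base stretches of *Ctcfl*, *Smco1* and *Car5a* that occur elsewhere, 8.11%, 11.1% and 22.4% of each, were spread over many genes. *4930519G04Rik* was among them for *Ctcfl*, and *Ctcfl*, *Smco1* and *Car5a* also had such stretches in common with one another. The part of these shared stretches in their counts was not tested. In contrast, *1700025N23Rik*, *A330069E16Rik* and *Abt1* had 2.08%, 2.39% and 1.07% in common with others and *Grk4* 4.93%.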

How the data were processed

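Bulk RNA-seq libraries of 3 control DRGs, 5 slow-growing PNs and 6 fast-growing PNs were analysed, grouped by their labels. From total RNA, the authors prepared amplified libraries (NuGEN Ovation kit), aligned the reads to mm10 with TopHat2 2.0.9, and counted them with featureCounts 1.5.2, and deposited whole-number counts for 24062 genes. The authors also deposited log2 values, normalized with edgeR's TMM method, for 16382 genes. There, 10 columns are headed by a mouse number alone, and their unit was entered as other for that reason, although what the authors deposited in them is on the log2 scale too. All columns were matched to a sample.

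Counts were analysed with edgeR 4.0.16 in R 4.3.3 (filterByExpr, TMM factors, quasi-likelihood test, Benjamini-Hochberg adjustment over all genes tested, threshold 0.05), with the libraries of each comparison only and no covariate, and levels are CPM after TMM scaling. The counts were used as deposited. In counts simulated with 200 genes changed by a known fold, 61.5% to 77.0% of these were recovered, depending on the comparison. Of the calls, 1.6% to 2.70% were false. The simulation held no batch and no outlying library. DESeq2 1.42.0 and limma 3.58.1 served as alternatives, beside other scalings, no filter, a fit over 3 groups, and leaving out each library. Since reads are not independent molecules, intervals and floors cover counting error only. P-values set a difference between groups against the spread between libraries within groups. They do not separate tissue from preparation or strain.

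Positions, overlaps and shared 50-base stretches came from GENCODE M21 (mm10). Of the genes counted, 22750 were matched by symbol, 914 by an older symbol and 398 not. Neighbours were the 3 nearest counted genes on each side. The members and the gene lists were chosen with earlier results of these data known. Other genes were named by a rule: *Nf1*, genes overlapping a member, called neighbours, up to 3 called genes per family, the most abundant gene of each marker list, and the 3 genes most like each direction of members. Genes not called that are named beside a member (paralogs and flanking genes, such as *Nop14* and *Baat*) were chosen after their values had been seen. Single-cell and human samples were not analysed here.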

Additional observations from a re-analysis of the deposited data

Results flagged for a closer look

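Within the slow-growing and the fast-growing PNs, each member was examined for a library far from the others of its class. In 1 of 20 such sets a library was flagged. *Abt1* was at 59.4 CPM in the fast-growing PN of mouse 1191 and between 41.2 and 47.3 CPM in the other 5. Uniformity among PNs had been part of the choice of the members, so this is a description, with no test and no chance rate.

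*Syna*, a placental fusion gene used here as a trophoblast marker, had a log2 fold change of -1.43 in fast- versus slow-growing PNs (edgeR quasi-likelihood test, adjusted p = 0.0449). It was the 1 gene called in this comparison among the 50 named genes, members aside, that were examined. The call was lost when any of 8 of the 11 PN libraries was left out (adjusted p up to 0.129), with limma-voom (0.0512) and with upper-quartile factors (0.0502). It was not called between PNs and controls (adjusted p = 0.467).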

How the results depend on the processing

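The direction of the members and the gap between PNs and controls were fixed by their choice, so neither is read as stability. The log2 fold changes of the members moved by more than the spread among PNs for *Vmn2r55*, *Psg28* and *1700025N23Rik* only, the members with the fewest control counts: from 5.90 to 9.94 for *Vmn2r55*, 5.28 to 9.49 for *Psg28* and 4.26 to 5.96 for *1700025N23Rik*.

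Counts of calls depended on the settings. For PNs versus controls, 4283 genes were called, and 2061 to 4779 when 1 library was left out, with 2476 without DRG4 and 2061 without DRG5. For slow-growing PNs versus controls, 1769 became 3530 with DESeq2, 3280 in the 3-group fit, and 599 to 2454 with 1 library left out. For fast-growing PNs versus controls, 5043 became 3342 to 5247 with 1 library left out. Between fast- and slow-growing PNs, 196 became 130 with DESeq2's size factors, 72 with upper-quartile factors, 1570 with DESeq2, 34 with limma-voom, 423 in the 3-group fit, and 2 to 1194 with 1 library left out. The cause was not tested. Among neighbours, the 11 calls became 4 with the 1 nearest gene on each side and 32 with the 10 nearest, because the windows hold fewer and more genes, and 6 to 16 with 1 library left out. Over all family and marker lists, 55 calls became 23 to 59 with 1 library left out, with 30 without DRG4 and 23 without DRG5, and 53 to 71 under the other settings.

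Reversals of direction were limited to genes that were not called. *Syna* had 0.0189 without DRG3 (and from -0.817 to 0.0189 over all libraries left out) and *Nefl* -0.195 with limma-voom. *Xist* had -0.411 without DRG3, -0.415 without DRG4, -0.348 without PN 1198A, -0.183 without PN 1206 and -0.301 without PN 1216, within a range of -0.415 to 9.37 over all libraries left out.

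No paired analysis was possible because the labels give the libraries no replicate numbers shared between groups. Depth limits the lowest levels, as for *Car5a* with 5 to 10 counts per PN.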
